A study of Mus musculus with 27 samples.

Results

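The genes described here are 50 mouse genes of RNA-binding regulators, among the 45195 genes of the deposited count table, followed across adult neurogenesis. They were chosen by family and by name, with earlier results of these data known: 16 heterogeneous nuclear ribonucleoproteins (hnRNPs), 3 poly(C)-binding proteins (Pcbp), 4 Elavl, 2 Musashi (Msi), 6 Celf, 3 Rbfox, 2 Nova, 3 Ptbp, 1 Pumilio and 3 fragile X (FMRP) family genes, 4 genes of the STAR family (Qk and Khdrbs1 to Khdrbs3), 2 Mbnl genes and Srrm4. All 50 matched a single Ensembl gene, and all 50 passed the filter on low counts in every fit. The 27 libraries fall into 10 groups. Total mRNA came from neural stem cells (NSC), early neuroblasts (ENB), late neuroblasts (LNB) and neurons (Neuron), with 3 libraries each, and ribosome-bound mRNA from the same 4 stages, with 2, 2, 3 and 2 libraries. The no-HA controls had 3 libraries from the subventricular zone (SVZ) and 3 from the olfactory bulb (OB). NSC and ENB were taken from the SVZ, and LNB and Neuron from the OB.

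All groups came from male C57BL/6 mice aged 8 to 12 weeks that received tamoxifen at 200 mg/kg by oral gavage. NSC were labelled in the TiCRY line (Tlx-CreER-Rpl22.HA-eYFP), in which the Tlx promoter drives the inducible Cre. ENB, LNB and Neuron were labelled in the DiCRY line (Dcx-CreER-Rpl22.HA-eYFP), in which the Dcx promoter does. In recombined cells the Cre switches on eYFP and adds an HA tag to the ribosomal protein Rpl22. Total mRNA was made from 200 to 500 sorted eYFP-positive cells with 1 to 2 mice for each library. For NSC, ENB and LNB the ribosome-bound fraction was recovered with an anti-HA antibody from homogenate of the whole tissue without sorting. The controls were the same immunoprecipitation from tissue without the tag. The step from NSC to ENB therefore also changes the mouse line, and the step from ENB to LNB also changes the tissue. Some animals gave both an ENB and an LNB library. Neuron libraries of ribosome-bound mRNA were placed by title, although other labels of theirs read total mRNA and give a sort protocol. They held 13316334 and 12793358 counts, against 6325479 to 9557093 in the other ribosome-bound libraries. Results with Neuron ribosome-bound mRNA rest on that placement.

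RNA-binding proteins of these families read short sequence elements in transcripts and set how pre-mRNA is spliced, how long mRNA lasts and how well it is translated. In neural development Ptbp1, which represses neuronal exons in progenitors, gives way to its paralog Ptbp2, and later to activators such as Rbfox, Nova and Celf proteins and Srrm4, which switches on neuronal microexons. Elavl2, Elavl3 and Elavl4 are neuronal stabilisers of AU-rich mRNA, the Musashi proteins repress translation in stem cells, and the hnRNPs package nascent transcripts in every cell type.

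A total mRNA library held 5225929 to 15994635 counts, a ribosome-bound one 6325479 to 13316334 and a control 5960357 to 9120659. The 50 genes took 0.803% to 1.45% of those counts in the first kind, and no more than 0.871% in any control. The labels were set against marker lists in total mRNA, by summed TPM (a transcript level corrected for length and depth). Neural stem cell markers summed to 5166 to 5731 in NSC, 626 to 841 in ENB, 859.9 to 10259 in LNB and 1224 to 4090.3 in Neuron. Neuroblast markers summed to 4545 to 5629.8 in NSC, 11432 to 13151.5 in ENB, 4677 to 11713 in LNB and 2162 to 2962 in Neuron. Neuron markers summed to 110.5 to 636 in NSC, 371 to 522 in ENB, 423 to 834 in LNB and 4634 to 7919.8 in Neuron. Among the LNB total libraries, replicates 1 and 3 carried more stem cell marker mRNA than any NSC library and replicate 2 did not, so results with LNB total are given with that spread. Oligodendrocyte markers summed to 182 to 1911 in NSC, 695 to 1874 in ENB, 966 to 1752 in LNB and 1142 to 5608 in Neuron total mRNA. Mature astrocyte markers summed to 949 to 1023, 16.2 to 113, 222 to 2103 and 196 to 1036 in the same order. The part of such cells in the Neuron changes was not tested. In bulk libraries such as these, fewer cells of a type and less RNA per cell cannot be told apart.

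Levels below are CPM, read counts relative to library size scaled by TMM (a factor that aligns the bulk of genes between libraries), unless TPM is named. Changes are log2 changes from edgeR's quasi-likelihood test. Their standard error was derived as the absolute change over the square root of the test's F statistic. The p-values were adjusted by the Benjamini-Hochberg method over all genes of the fit, with a threshold of 0.05. In total mRNA, 10 of the 50 genes changed in ENB against NSC, 9 higher and 1 lower, where 10.1% of the 17592 genes tested changed (4.95% higher and 5.12% lower). In LNB against ENB 1 gene changed, Qk, where 3.77% of all genes did (2.8% higher and 0.966% lower). That call did not hold with the animal as a block. Without LNB replicate 2 a total of 13 of the 50 changed, and 1643 of all genes did in place of 663. In Neuron against LNB 17 changed, 3 higher and 14 lower, where 14.7% of all genes did (5.33% higher and 9.34% lower). With RLE scaling, another way to set library scale, the split there was 4 higher and 10 lower, and 1193 of 2465 called genes were higher in place of 937 of 2580. Between the ends of the series, Neuron against NSC, 24 of 50 changed, 7 higher and 17 lower, where 23.7% of all genes did (11% higher and 12.8% lower). The median change of the 50 genes in that comparison was -0.51, against -0.06 over all genes tested. Of the 24 calls 15 held without NSC replicate 1 and 16 without NSC replicate 2. Of the 17 in Neuron against LNB 11 held without LNB replicate 1, LNB replicate 2 or Neuron replicate 3, and of the 10 in ENB against NSC 6 held without NSC replicate 2, NSC replicate 3 or ENB replicate 2.

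In ribosome-bound mRNA 5 of 50 genes changed in ENB against NSC, 1 higher and 4 lower, where 8.28% of 19066 genes did (3.44% higher and 4.85% lower). In LNB against ENB 9 changed, 7 higher and 2 lower, where 12.9% of all genes did (6.81% higher and 6.05% lower). With RLE scaling the split was 5 higher and 3 lower, and 953 of 2373 called genes were higher in place of 1298 of 2452. Those libraries share animals, and with the animal as a block 4 of the 9 calls held, those of Srrm4, Hnrnpa3, Khdrbs1 and Mbnl1. In Neuron against LNB 1 gene changed, Hnrnpa1, which was lower, where 4.13% of all genes changed and 3.75% were lower. That call was lost with the sequencing index as a term, and LNB and Neuron share no index there. In Neuron against NSC 22 changed, 12 higher and 10 lower, where 26.7% of all genes did (11% higher and 15.7% lower), and the median of the 50 genes was 0.25 against -0.05 over all genes tested. In this kind of mRNA leaving out ENB replicate 1 ended all 5 calls in ENB against NSC and left 3 of 9 in LNB against ENB. Leaving out either NSC replicate left 11 of the 22 calls in Neuron against NSC. Leaving out ENB replicate 2 or LNB replicate 2 or 3 left 5, 4 and 4 of the 9 calls in LNB against ENB, and leaving out NSC replicate 2 left none of the 5 in ENB against NSC.

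**Figure D1:**
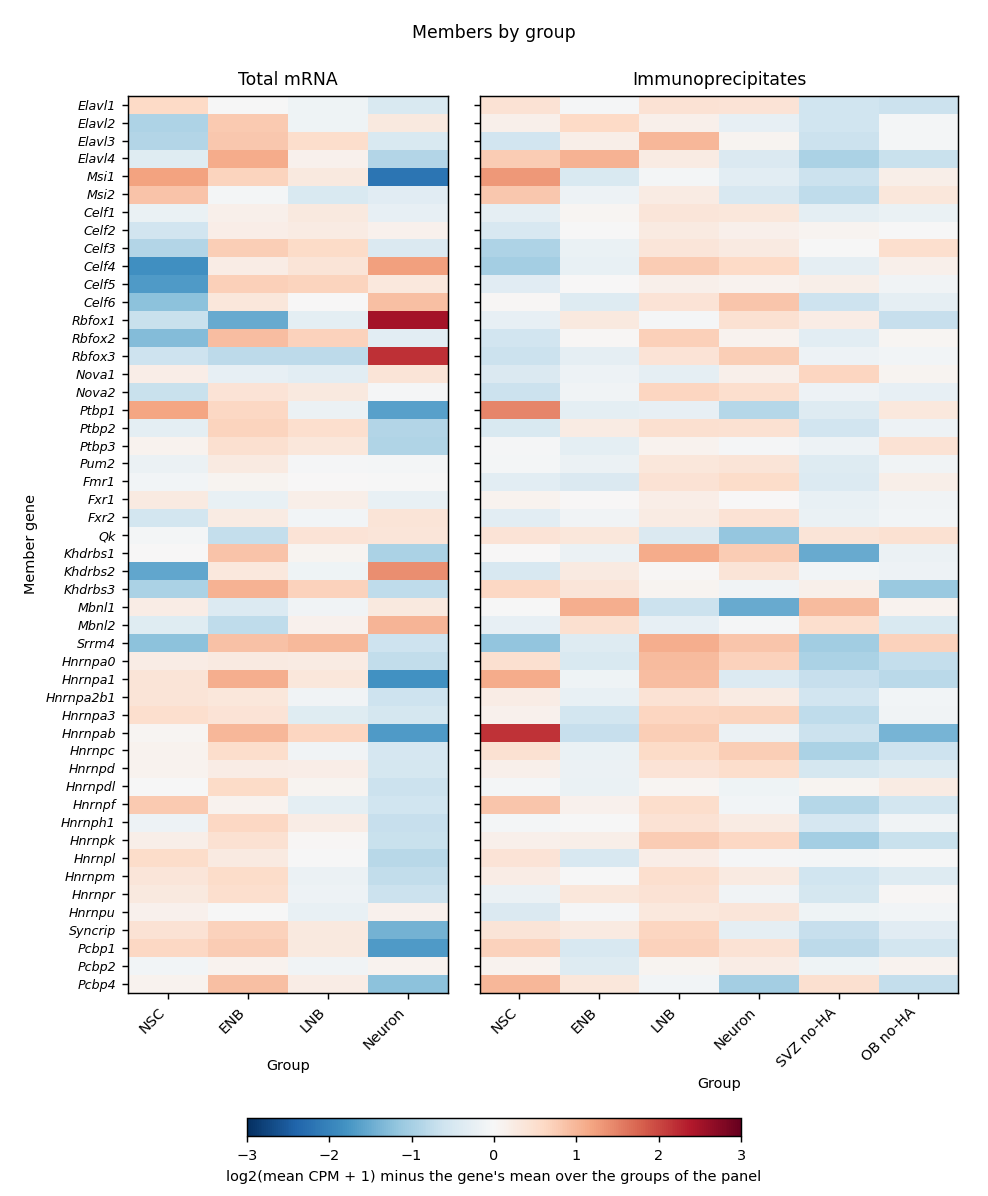
Mean level of each of the 50 genes by group, as log2(mean CPM + 1) minus the gene's mean over the groups of its panel (total mRNA left, immunoprecipitates right; red above and blue below that mean). Rbfox1 and Rbfox3 are reddest in Neuron total mRNA, Msi1, Ptbp1, Hnrnpa1, Hnrnpab and Pcbp1 are bluest there, and Hnrnpab is reddest in the NSC immunoprecipitate.

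Ptbp1, the repressor of neuronal exons, was lower at each later stage in total mRNA. The gene (ENSMUSG00000006498, GRCm38.p6 chromosome 10, 79854432 to 79864435) stood at 316, 329.6 and 311 CPM in the NSC total libraries, 256, 176 and 217 in ENB, 129, 122 and 124 in LNB and 51.7, 47.7 and 34.6 in Neuron. No library of a stage overlapped the stage before it. The fall passed the test in Neuron against LNB (-1.48 ± 0.20, adjusted p = 0.0008) and in Neuron against NSC (-2.83 ± 0.21, adjusted p = 1.59e-05). The earlier steps were -0.56 ± 0.20 in ENB against NSC (adjusted p = 0.095) and -0.79 ± 0.20 in LNB against ENB (adjusted p = 0.0502). In ribosome-bound mRNA Ptbp1 fell at the first step, to 41.9 and 33.7 CPM in ENB, against 104 and 159 in NSC (-1.80 ± 0.38, adjusted p = 0.0106). It then stood at 39.3, 43.8 and 34.5 CPM in LNB and 30.4 and 20.3 in Neuron. The ENB values lay within those of the SVZ control, at 21.5, 48.3 and 37.2 CPM. The ENB call was lost without NSC replicate 2 (adjusted p = 0.079), ENB replicate 1 (0.0598) or ENB replicate 2 (0.0833).

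Ptbp2, the neuronal paralog, had 1 step past the threshold, in total mRNA. There it had 166, 133 and 163 CPM in NSC, 303, 323 and 267 in ENB, 274, 304 and 220.5 in LNB and 57, 159.5 and 90.1 in Neuron. It fell in Neuron against LNB (-1.38 ± 0.31, adjusted p = 0.0123, and 0.0608 without LNB replicate 2), while its ENB minus NSC change was 0.95 ± 0.31 (adjusted p = 0.071). In ribosome-bound mRNA no step of Ptbp2 passed the test, with 48.7 and 116 CPM in NSC, 120.2 and 150.0 in ENB, 166, 153 and 162 in LNB and 140.1 and 173 in Neuron. The difference between the kinds of mRNA did not pass in any step either (ribosome-bound minus total 1.34 ± 0.46 in Neuron against LNB, adjusted p = 0.117). Ptbp3, a relative better known from blood cells, changed in no step of either kind of mRNA. By TPM, which allows levels of different genes to be compared, Ptbp1 held 64.3% ± 2.85 of the family's summed level in NSC total mRNA, 40.5% ± 6.00 in ENB, 30.0% ± 1.39 in LNB and 34.2% ± 7.25 in Neuron (SD, n = 3 each). In ribosome-bound mRNA it held 60.7% ± 3.32 in NSC, 22.9% ± 3.11 in ENB, 18.9% ± 2.86 in LNB and 14.1% ± 2.36 in Neuron (SD, n = 2, 2, 3 and 2). In the no-HA controls Ptbp1 held 28.7% ± 4.24 in SVZ and 34.5% ± 4.19 in OB (SD, n = 3 each). Ptbp2 exceeded Ptbp1 by TPM in each ENB and LNB library of both kinds and in no NSC library. It also exceeded Ptbp1 in each control library, at ratios of 1.27 to 2.25. In Neuron total replicate 1 the Ptbp2 to Ptbp1 ratio of TPM was 0.877, against 1.92 and 2.46 in the other Neuron total libraries.

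Srrm4 (chromosome 5, 116439268 to 116592562), the activator of neuronal microexons, peaked in neuroblasts in total mRNA. It had 34.4, 30.5 and 33.1 CPM in NSC, 104, 199 and 126 in ENB, 171, 173 and 112 in LNB and 53.7, 70.8 and 27 in Neuron. The rise in ENB against NSC was 2.13 ± 0.36 (adjusted p = 0.00496) and the fall in Neuron against LNB -1.59 ± 0.35 (adjusted p = 0.011). Neuron and NSC did not differ past the threshold (0.63 ± 0.34, adjusted p = 0.21). In ribosome-bound mRNA it had 18.7 and 19.7 CPM in NSC, 34.8 and 33.9 in ENB, 94.2, 100.4 and 98.9 in LNB and 78.9 and 82.5 in Neuron, and rose in LNB against ENB (1.51 ± 0.24, adjusted p = 0.000469) and in Neuron against NSC (2.07 ± 0.26, adjusted p = 2.69e-05). The same difference between tissues stood in the controls, where Srrm4 had 72.3, 76.3 and 71 CPM in OB against 28.8, 18.7 and 17.1 in SVZ (1.77 ± 0.21, adjusted p = 2.62e-05). No immunoprecipitate differed from the control of its tissue for Srrm4, with changes from -0.16 to 0.68, so how much of the rise in ribosome-bound mRNA comes from tagged cells was not tested.

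**Figure D2:**
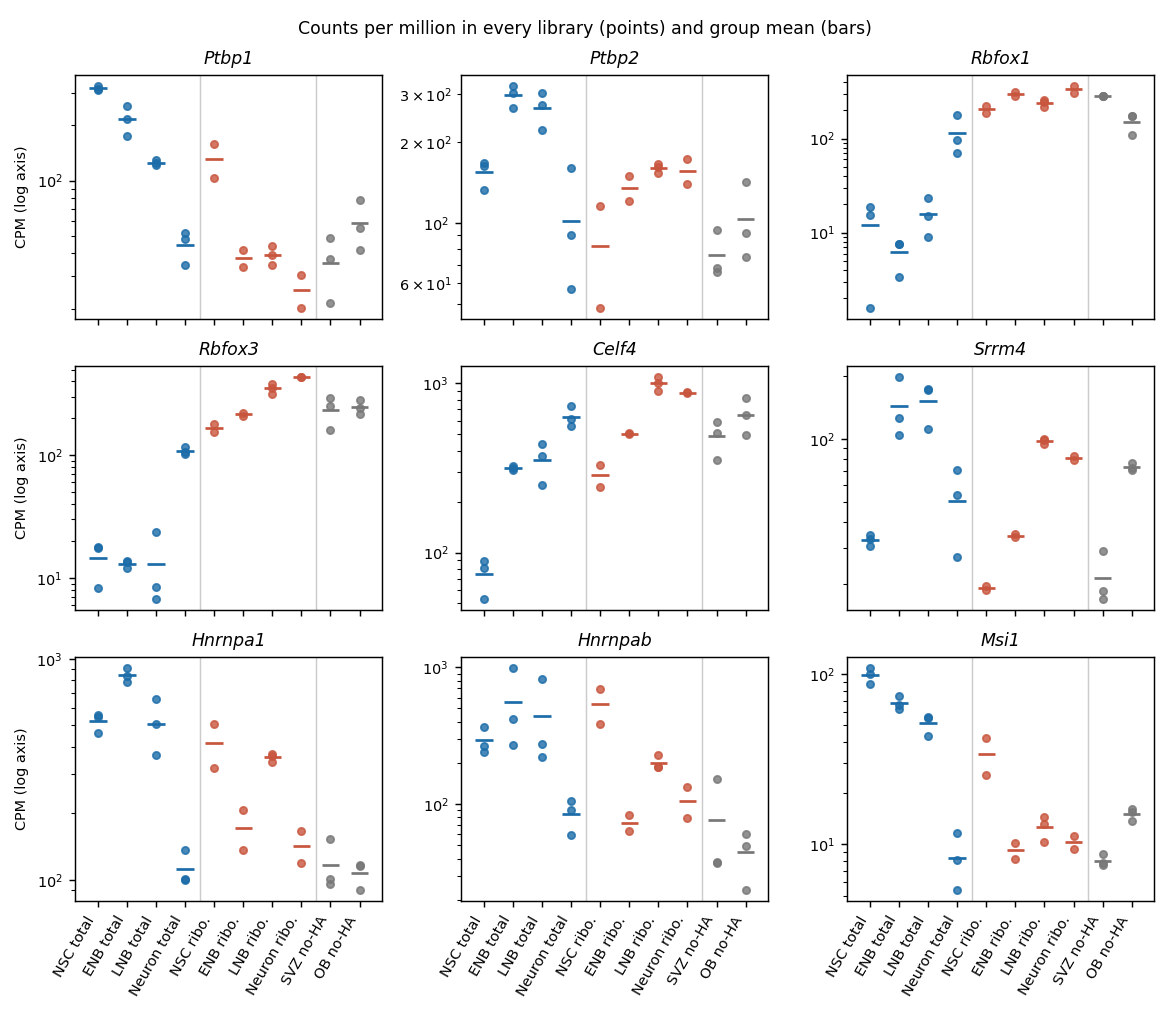
CPM (log axis, own scale for each gene) of 9 of the genes in every library (points) with group means (bars), for total mRNA in blue, ribosome-bound mRNA in red and no-HA controls in grey. Ptbp1 and Msi1 are lowest in Neuron among the total mRNA groups, Rbfox1 and Rbfox3 are highest there, and Rbfox1 in the NSC and ENB immunoprecipitates stays near its SVZ control level.

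The Rbfox genes encode splicing activators and repressors that bind the same short element, and in total mRNA Rbfox2 was highest in the neuroblast stages, Rbfox1 and Rbfox3 in Neuron. Rbfox2 (chromosome 15, 77078990 to 77308434), the broadly expressed member, had 75, 59.5 and 47.9 CPM in NSC, 299, 296 and 276 in ENB, 231, 363 and 142 in LNB and 144, 107 and 109.7 in Neuron. It rose in ENB against NSC (2.26 ± 0.31, adjusted p = 0.00218) and fell in Neuron against LNB (-1.03 ± 0.30, adjusted p = 0.0405), where 1 LNB library lay within the Neuron range. That fall was lost without LNB replicate 1 or 2 or Neuron replicate 2 or 3 (adjusted p = 0.083, 0.242, 0.107 and 0.102). Rbfox3 (chromosome 11, 118489760 to 118911597), the antigen known as NeuN in mature neurons, had 17.8, 8.31 and 17.5 CPM in NSC, 13.7, 12 and 13.4 in ENB, 8.51, 23.5 and 6.77 in LNB and 103, 106 and 117 in Neuron. It rose in Neuron against LNB (3.06 ± 0.47, adjusted p = 0.00159) and in Neuron against NSC (2.91 ± 0.47, adjusted p = 0.00115). Rbfox1, the other neuronal member, had 95.5, 70.6 and 178 CPM in Neuron, against 9, 23.2 and 15.1 in LNB (2.86 ± 0.74, adjusted p = 0.0236). The Rbfox1 call in that step was lost without LNB replicate 1 (adjusted p = 0.0927), LNB replicate 3 (0.0626) or Neuron replicate 3 (0.0742), while its change in Neuron against NSC (3.27 ± 0.75, adjusted p = 0.00866) held without any library. Rbfox2 held 82.7% ± 3.33 of the family's TPM in ENB and 73.4% ± 8.22 in LNB total mRNA, but 14.1% ± 5.65 in Neuron, where Rbfox1 held 47.7% ± 9.37 and Rbfox3 38.2% ± 6.66 (SD, n = 3 each).

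Ribosome-bound libraries held a small share of Rbfox2 at every stage. Rbfox2 held 7.08% ± 0.700 of family TPM in NSC, 7.53% ± 0.513 in ENB, 9.95% ± 0.675 in LNB and 5.51% ± 0.287 in Neuron. The no-HA controls stood at a similar mix, with 10.3% ± 1.90 in OB and 6.49% ± 1.49 in SVZ (SD, n = 3 each). Rbfox1 had 220.3 and 187 CPM in the NSC and 310.1 and 281 in the ENB immunoprecipitate, against 281, 280.3 and 286 in the SVZ control, and neither passed the test against it. In the OB the Neuron immunoprecipitate had 308 and 365 CPM of Rbfox1, against 172, 172 and 109 in the control (1.16 ± 0.22, adjusted p = 0.00187), and 436 and 435 CPM of Rbfox3, against 244, 284 and 216 (0.81 ± 0.23, adjusted p = 0.019). The Rbfox3 call was lost without Neuron replicate 1 (adjusted p = 0.0664) or 2 (0.0825). Ribosome-bound Rbfox3 was higher in Neuron than in NSC, where it had 181 and 154 CPM (1.38 ± 0.27, adjusted p = 0.0011). Rbfox1 (0.72 ± 0.25, adjusted p = 0.0381) and Rbfox2 (0.68 ± 0.21, adjusted p = 0.0278) were higher there too, but the Rbfox1 call was lost without each of the 4 libraries (0.0558 to 0.195) and the Rbfox2 call without NSC replicate 1 (0.109), NSC replicate 2 (0.113) or Neuron replicate 1 (0.149). For Rbfox3 the step to Neuron from LNB differed between the kinds of mRNA (ribosome-bound minus total -2.73 ± 0.52, adjusted p = 0.011). The LNB immunoprecipitate had 316, 381 and 355 CPM of Rbfox3 and did not pass the test against the OB control. How much of that level comes from tagged cells was not tested. Neuron markers, which a homogenate of tissue also holds outside the tagged cells, summed to 2598 to 4078 TPM in the OB and 1010 to 1190 in the SVZ controls.

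**Figure D3:**
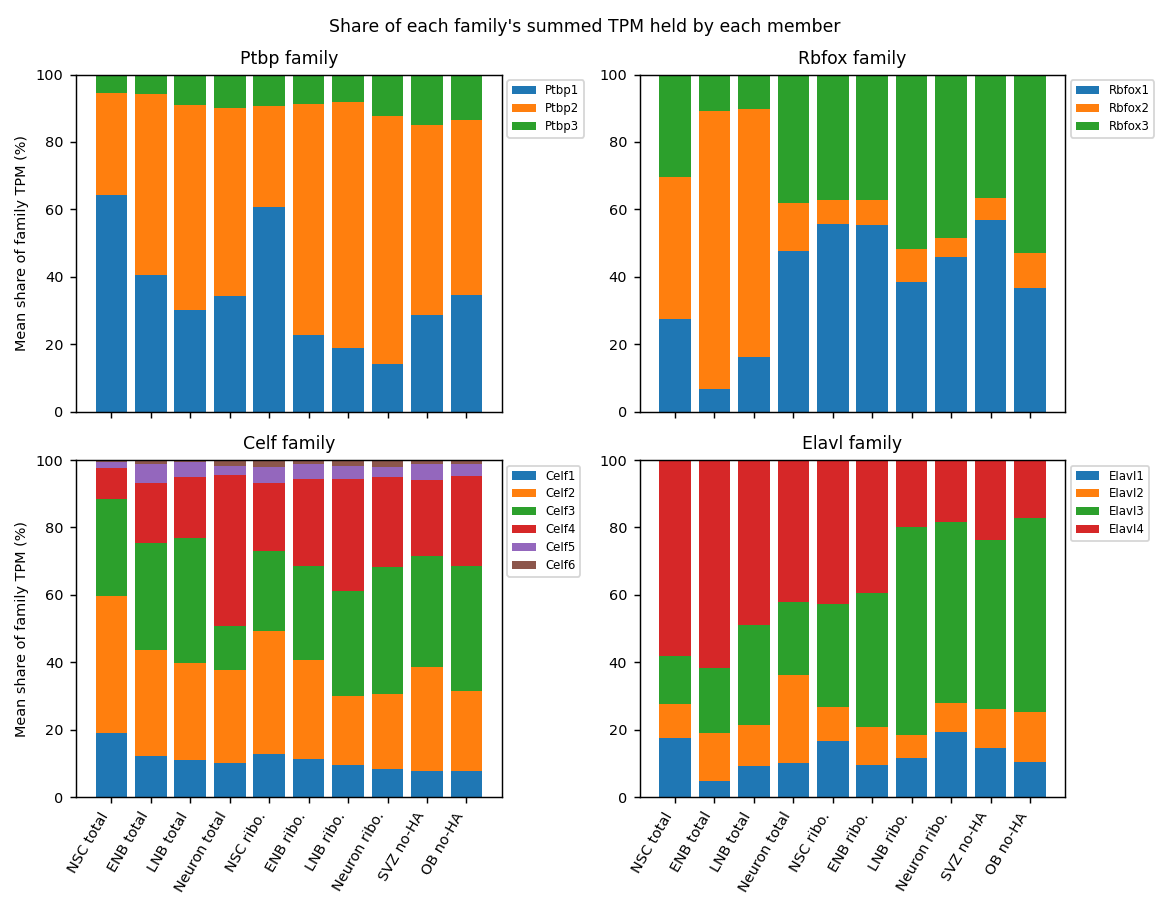
Mean share (%) of the summed TPM of the Ptbp, Rbfox, Celf and Elavl families held by each gene, for the 4 stages in total mRNA, the 4 in ribosome-bound mRNA and the 2 controls. Ptbp1 loses share after NSC in both kinds of mRNA, whereas Rbfox2 dominates its family in ENB and LNB total mRNA (82.7% and 73.4%) and holds 5.51% to 9.95% of it in ribosome-bound mRNA.

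Celf proteins bind GU-rich elements in introns and 3' ends, and 3 of the neuronal members Celf3 to Celf6 rose in ENB against NSC in total mRNA. Celf4 had 88.5, 53.3 and 81.1 CPM in NSC total mRNA, 315, 325 and 305 in ENB, 369, 436 and 251 in LNB and 558, 612 and 737 in Neuron. No NSC library reached the lowest library of a later stage. The change was 2.08 ± 0.25 in ENB against NSC (adjusted p = 0.00107) and 3.10 ± 0.26 in Neuron against NSC (adjusted p = 2.95e-05). Its rise in Neuron against LNB (0.85 ± 0.25, adjusted p = 0.0376) was lost when LNB replicate 1 (adjusted p = 0.0981) or 3 (0.101) or Neuron replicate 2 (0.0697) or 3 (0.106) was left out. Celf5 had 42.4, 52.6 and 42.3 CPM in ENB, against 6.96, 3.96 and 12.7 in NSC (2.55 ± 0.47, adjusted p = 0.00769), and was also higher in Neuron than in NSC (2.16 ± 0.46, adjusted p = 0.00603). Celf3 rose in ENB against NSC (1.62 ± 0.41, adjusted p = 0.0288), a call lost without any NSC library (adjusted p = 0.0595 to 0.089) or without ENB replicate 2 (0.114). Celf6 was the least abundant and ran from 0 to 20.9 CPM over the total libraries, with no change past the threshold. Celf1 and Celf2, which are expressed in many tissues, changed in no total mRNA comparison, with changes from -0.54 to 0.78. By TPM, Celf4 held 9.34% ± 0.732 of the family in NSC, 17.9% ± 4.61 in ENB, 18.0% ± 4.68 in LNB and 44.8% ± 5.29 in Neuron (SD, n = 3 each).

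In ribosome-bound mRNA Celf4 had 330.3 and 243 CPM in NSC, 509 and 498 in ENB, 903, 1009 and 1090.5 in LNB and 879 and 882 in Neuron. It rose in Neuron against NSC (1.62 ± 0.29, adjusted p = 0.00066). The rise in LNB against ENB (0.99 ± 0.27, adjusted p = 0.0229) did not pass with the animal as a block (adjusted p = 0.113). Celf3 (fold 2.3, adjusted p = 0.022), Celf2 (0.63 ± 0.22, adjusted p = 0.0464) and Celf1 (0.61 ± 0.21, adjusted p = 0.0409) were higher in Neuron than in NSC too. The Celf1 and Celf3 calls were each lost without any of the 4 libraries (adjusted p = 0.0757 to 0.222 and 0.0502 to 0.0987), and the Celf2 call without NSC replicate 1 (0.108), NSC replicate 2 (0.204) or Neuron replicate 2 (0.299). The NSC immunoprecipitate did not exceed the SVZ control for any Celf gene past the threshold. Celf4 had 352, 511 and 592 CPM in the SVZ and 646, 813 and 495 in the OB control. No immunoprecipitate differed from the control of its tissue for Celf4 past the threshold. How much of the Celf4 rise in ribosome-bound mRNA comes from tagged cells was not tested.

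Khdrbs proteins of the STAR family bind AU-rich elements and set neuronal exon choice, and each of the 3 took its own course in total mRNA. Khdrbs3 had 95.6, 103 and 94.4 CPM in ENB, against 30.6, 21.5 and 19.1 in NSC (2.04 ± 0.30, adjusted p = 0.00282), and fell to 26, 23.5 and 31.8 in Neuron, against 80.6, 101 and 48.4 in LNB (-1.50 ± 0.30, adjusted p = 0.00641). Khdrbs2 had 8.87, 16.9 and 38.4 CPM in Neuron, against 3.51, 1.07 and 1.12 in NSC (3.47 ± 0.75, adjusted p = 0.00609). Khdrbs1, also called Sam68, was lower in Neuron than in NSC (-0.96 ± 0.31, adjusted p = 0.0413), a call that held in 1 of 6 fits with a library left out, the exception being the one without Neuron replicate 2 (the others gave adjusted p = 0.0931 to 0.135). It was lower in Neuron than in LNB as well (-1.05 ± 0.31, adjusted p = 0.0411), which was lost without LNB replicate 1 (0.0862), LNB replicate 2 (0.248), Neuron replicate 1 (0.114) or Neuron replicate 3 (0.119). In ribosome-bound mRNA Khdrbs1 had 286, 298 and 232 CPM in LNB, against 104 and 118 in ENB (1.29 ± 0.29, adjusted p = 0.00732, and 0.0817 without ENB replicate 1). It was higher in all 4 kinds of immunoprecipitate than in the control of the tissue, by 0.93 to 1.53. Its ENB, LNB and Neuron calls against the controls were lost without ENB replicate 2 (adjusted p = 0.219), LNB replicate 2 (0.0542) and Neuron replicate 1 (0.153), and the ENB call also without ENB replicate 1 (0.0546) or SVZ control replicate 3 (0.0861).

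Qk and the Mbnl genes, which promote differentiation-stage splicing in glia and muscle as well as in neurons, moved differently in the 2 kinds of mRNA. Mbnl2 had 214, 221 and 238 CPM in Neuron total mRNA, against 83.4, 93.1 and 81.4 in NSC (1.38 ± 0.28, adjusted p = 0.00462), while Mbnl1 differed by 0.06 ± 0.22 (adjusted p = 0.87). In ribosome-bound mRNA Mbnl1 had 65.1 and 76 CPM in NSC, 169.6 and 137 in ENB, 47.1, 44.2 and 44.7 in LNB and 33.1 and 15.5 in Neuron. It rose in ENB against NSC (1.12 ± 0.31, adjusted p = 0.0389, lost without any of the 4 libraries at 0.0809 to 0.185) and fell in LNB against ENB (-1.76 ± 0.28, adjusted p = 0.000495) and in Neuron against NSC (-1.54 ± 0.32, adjusted p = 0.00206). Qk fell to 122 and 222 CPM in Neuron ribosome-bound mRNA, against 484 and 551 in NSC (-1.59 ± 0.30, adjusted p = 0.000909). In the SVZ control Mbnl1 stood at 107, 162 and 148 CPM and Qk at 384, 599 and 528, so the ENB immunoprecipitate lay at the level of the control for both. Oligodendrocyte markers, of cells that express Qk strongly, summed to 3458 to 3931 TPM in the NSC and 8907 to 10519 in the ENB immunoprecipitate. They summed to 901 to 1262 in the LNB and 289 to 547 in the Neuron immunoprecipitate. In the controls they summed to 1309 to 2758 in OB and 6188 to 8898 in SVZ. Qk did not follow them throughout, with 522 and 464 CPM in the ENB immunoprecipitate and 488, 560 and 551 in the OB control. The part of oligodendrocytes in these changes was not tested.

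Qk was also the sole gene of the 50 to change in LNB against ENB in total mRNA, with 578, 295 and 656 CPM in LNB against 226, 203 and 272 in ENB (1.12 ± 0.28, adjusted p = 0.0487). Its LNB replicates followed the stem cell markers, which summed to 7033 TPM in replicate 1, 859.9 in replicate 2 and 10259 in replicate 3. Mature astrocyte markers summed to 1427, 222 and 2103 TPM in the same replicates. The part of those cells in the change was not tested. With the animal as a block the change did not pass (adjusted p = 0.399), and it was lost without LNB replicate 1 (0.161) or 3 (0.183) or any ENB library (0.121 to 0.166). The Qk call was also lost with the deposited expected counts in place of the raw counts, and with the sequencing index or the replicate number as a term. Within one sequencing index the difference was 1.60 over 2 LNB and 1 ENB libraries and 0.25 over 1 LNB and 2 ENB libraries.

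The Nova genes, neuronal splicing regulators that bind YCAY clusters, were among the lowest of the 50 and did not change in total mRNA. Nova1 ranged from 6.39 to 42.1 CPM over the 12 total libraries and Nova2 from 22.1 to 80. In ribosome-bound mRNA Nova2 had 79.8 and 83.5 CPM in Neuron, against 33.9 and 39.3 in NSC (1.16 ± 0.28, adjusted p = 0.00619, and 0.0581 without NSC replicate 1). Nova1 was lower in the NSC immunoprecipitate than in the SVZ control (-1.10 ± 0.24, adjusted p = 0.00747, and 0.0951 without NSC replicate 1).

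Among the regulators of mRNA stability and translation, the neuronal Elavl genes rose together at the first step in total mRNA. Elavl3 had 364, 461 and 387 CPM in ENB, against 127, 101 and 146 in NSC (1.69 ± 0.26, adjusted p = 0.0034). Elavl4 (chromosome 4, 110203737 to 110351939) had 494, 479.7 and 456 in ENB, against 218, 153 and 142 in NSC (1.48 ± 0.34, adjusted p = 0.0193), and Elavl2 143, 275 and 208 against 73.1, 44 and 72.2 (1.73 ± 0.50, adjusted p = 0.0481). For each of the 3 genes every ENB library lay above every NSC library. The Elavl3 call held without any library. The Elavl2 call was lost without each library in turn (adjusted p = 0.0716 to 0.175), and the Elavl4 call without NSC replicate 2 or 3 or any ENB library (0.0537 to 0.0972). Elavl3 then fell to 184, 193 and 125 CPM in Neuron, against 356, 419.9 and 232 in LNB (fold 0.499, adjusted p = 0.0236), a call lost without LNB replicate 1 (0.0708), LNB replicate 2 (0.137) or Neuron replicate 3 (0.0716). Elavl1, the ubiquitous member also called HuR, was lower in Neuron than in NSC (-1.07 ± 0.30, adjusted p = 0.0218), with 76.1, 109 and 78.6 CPM against 193, 214 and 148. That call was lost without NSC replicate 1 (0.09), NSC replicate 2 (0.0879), Neuron replicate 1 (0.0681) or Neuron replicate 3 (0.0632).

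Among ribosome-bound libraries the shares of Elavl3 and Elavl4 in LNB and Neuron were close to those of the OB control. By TPM, Elavl4 held 42.6% ± 0.417 of the family in NSC, 39.6% ± 7.65 in ENB, 19.8% ± 1.95 in LNB and 18.4% ± 5.44 in Neuron, while Elavl3 held 30.5% ± 0.748, 39.6% ± 3.87, 61.8% ± 2.32 and 53.5% ± 4.19 in the same order of stages (SD, n = 2, 2, 3 and 2). In the no-HA controls Elavl4 held 17.3% ± 3.52 in OB and 23.6% ± 10.2 in SVZ, and Elavl3 57.5% ± 2.91 in OB and 50.3% ± 12.9 in SVZ (SD, n = 3 each). Elavl4 itself was lower in Neuron than in NSC (-1.21 ± 0.43, adjusted p = 0.0464), a call lost without each of the 4 libraries (0.0762 to 0.186). Elavl4 was also the gene of the 50 furthest above the SVZ control in the ENB immunoprecipitate, at 92.2 and 172 CPM against 30.3, 46.5 and 19.7 (2.04 ± 0.39, adjusted p = 0.0119). That call was lost without ENB replicate 2 (adjusted p = 0.255), SVZ control replicate 1 (0.0512) or SVZ control replicate 3 (0.0601).

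Msi1 (chromosome 5, 115359059 to 115455698), the translational repressor used as a stem cell marker, had the most negative change of the 50 genes in Neuron against LNB and against NSC in total mRNA. It stood at 109, 99.9 and 87.1 CPM in NSC, 65.6, 74.6 and 62.9 in ENB, 55.7, 43.4 and 56.4 in LNB and 11.6, 8.08 and 5.4 in Neuron. The changes were -2.62 ± 0.29 in Neuron against LNB (adjusted p = 0.000259) and -3.55 ± 0.30 in Neuron against NSC (adjusted p = 2.9e-05). Ribosome-bound Msi1 was already low in ENB, at 8.22 and 10.2 CPM, against 25.8 and 42.1 in NSC (-1.88 ± 0.39, adjusted p = 0.00971), and stood at 13.1, 10.3 and 14.4 in LNB and 9.35 and 11.2 in Neuron. The call at that step was lost without NSC replicate 2 (adjusted p = 0.0833) or ENB replicate 1 (0.0834). Of the 4 immunoprecipitates that of NSC passed the test against its control for Msi1, by 2.08 ± 0.35 over 7.53, 7.8 and 8.76 CPM in SVZ (adjusted p = 0.00135). The OB control had 15.4, 13.7 and 16 CPM of Msi1, so the LNB and Neuron immunoprecipitates lay near or below it. Msi2, its broader paralog, had 202, 191 and 115 CPM in Neuron, against 346, 385 and 419.5 in NSC (-1.18 ± 0.24, adjusted p = 0.00422). Its fall in ENB against NSC (-0.90 ± 0.24, adjusted p = 0.0337) was lost without each library in turn (0.0505 to 0.118). In ribosome-bound mRNA both were lower in Neuron than in NSC, Msi1 at -1.72 ± 0.39 (adjusted p = 0.00349) and Msi2 at -1.28 ± 0.30 (adjusted p = 0.00505, and 0.0531 without Neuron replicate 1). Msi1 held 24.3% ± 4.19 of the 2 genes' TPM in NSC and 4.08% ± 0.744 in Neuron total mRNA (SD, n = 3 each).

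The FMRP family and Pum2, which repress translation of their target mRNAs, had no change past the threshold in total mRNA. This holds for Fmr1, Fxr1, Fxr2 and Pum2, and their changes over the 4 comparisons ran from -0.51 to 0.96. In ribosome-bound mRNA Fmr1 (0.88 ± 0.30, adjusted p = 0.041) and Fxr2 (0.77 ± 0.27, adjusted p = 0.045) were higher in Neuron than in NSC. Neuron replicate 2 had 137 CPM of Fmr1 and replicate 1 had 60.5, inside the NSC values of 45.7 and 61.7. Without Neuron replicate 2 the Fmr1 change was 0.18 (adjusted p = 0.721) and without Neuron replicate 1 it was 1.35 (0.00186). It was also lost without NSC replicate 1 (0.246) or 2 (0.055), and the Fxr2 call without each of the 4 libraries (0.0563 to 0.222).

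The 19 hnRNP and Pcbp genes included the most abundant of the set, and many of them fell in neurons. None of the 19 changed in ENB against NSC or in LNB against ENB in total mRNA. In Neuron against LNB 6 of 19 fell and none rose, where 9.34% of all genes fell and 5.33% rose. In Neuron against NSC 12 of 19 fell and none rose, where 12.8% of all genes fell and 11% rose, and the median of the 19 was -1.01. Their summed level was 5931 ± 638 TPM in NSC, 6843 ± 551 in ENB, 5031 ± 2059 in LNB and 2888 ± 338 in Neuron (SD, n = 3 each). The LNB libraries ran from 3259 to 7289 TPM, which spans the gap between ENB and Neuron. Hnrnpa1 (chromosome 15, 103239943 to 103246698), which represses splicing at exonic silencers, had 556, 546 and 463 CPM in NSC, 786, 909 and 837 in ENB, 505, 655 and 365 in LNB and 136, 101 and 99.4 in Neuron. Its change was -2.22 ± 0.24 in Neuron against NSC (adjusted p = 0.000101) and -2.18 ± 0.24 in Neuron against LNB (adjusted p = 0.000237). Pcbp1 (chromosome 6, 86524480 to 86526189), an intronless gene whose product binds C-rich mRNA, had 110.5, 57.3 and 67.6 CPM in Neuron, against 392, 410.4 and 384 in NSC (-2.33 ± 0.39, adjusted p = 0.00134). Syncrip, which binds dendritic mRNA, had 41.2, 23.1 and 56.8 CPM in Neuron, against 163, 156 and 125 in NSC (-1.87 ± 0.36, adjusted p = 0.00304). Both also fell in Neuron against LNB, with changes of -2.01 ± 0.38 and -1.74 ± 0.36 (adjusted p = 0.00511 and 0.0075).

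Hnrnpf, Hnrnpl, Pcbp4, Hnrnpm, Hnrnpa3, Hnrnpa2b1, Hnrnpa0, Hnrnpr and Hnrnpab fell in Neuron against NSC as well, with changes of -0.95 to -1.78. Hnrnpf, which binds G-runs, had 50.5, 78.4 and 83.8 CPM in Neuron, against 183, 217 and 162 in NSC (-1.40 ± 0.25, adjusted p = 0.0021). Hnrnpab was lower in Neuron than in LNB too (-2.37 ± 0.56, adjusted p = 0.0151, lost without LNB replicate 2 at 0.077 or Neuron replicate 3 at 0.0552), as was Pcbp4 (-1.45 ± 0.24, adjusted p = 0.00218). Hnrnpab varied widely among neuroblast libraries, with 988, 421 and 268 CPM in ENB and 276, 824 and 219 in LNB, and its Neuron minus NSC call (-1.78 ± 0.55, adjusted p = 0.0342) was lost without each library in turn (0.058 to 0.123). The call of Hnrnpa0 was lost without any NSC library or Neuron replicate 2 or 3 (adjusted p = 0.0633 to 0.194). Those of Hnrnpa3, Hnrnpa2b1, Hnrnpm, Hnrnpl and Hnrnpr were lost without NSC replicate 1 (0.102, 0.0521, 0.0527, 0.0693 and 0.067), and the first 3 also without NSC replicate 2 (0.108, 0.0663 and 0.0587). Hnrnpa3 was lost without Neuron replicate 1 (0.0803) or 2 (0.0605) as well. With the deposited expected counts, which share reads between similar sequences, the change of Hnrnpa3 was -0.21 (adjusted p = 0.657), so its call depends on which deposited counts are used. Hnrnpu and Pcbp2 stood at the other end, with changes of -0.00 ± 0.31 and 0.19 ± 0.27. Hnrnpc, Hnrnpd, Hnrnpdl, Hnrnph1 and Hnrnpk did not pass in Neuron against NSC, at -0.54 to -0.84, and Hnrnph1 passed in Neuron against LNB (-0.91 ± 0.24, adjusted p = 0.0259). That last call was lost without LNB replicate 1 (0.0758), LNB replicate 2 (0.145), Neuron replicate 1 (0.0593) or Neuron replicate 2 (0.0832).

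In ribosome-bound mRNA the same 19 genes had a median of 0.06 in Neuron against NSC, with 4 lower and none higher, where 15.7% of all genes were lower and 11% higher. The 4 were Hnrnpab (-2.35 ± 0.59), Pcbp4 (-2.04 ± 0.33), Hnrnpa1 (-1.53 ± 0.31) and Hnrnpf (-0.92 ± 0.31), with adjusted p = 0.00736, 0.000293, 0.00152 and 0.0393. The Hnrnpf call was lost without each of the 4 libraries (0.0566 to 0.215) and the Hnrnpab call without NSC replicate 2 (0.059) or Neuron replicate 1 (0.0645). At the first step Hnrnpab had 63.5 and 82.9 CPM in ENB, against 384 and 696 in NSC (-2.88 ± 0.60, adjusted p = 0.00989), a call lost without NSC replicate 2 (0.0587), ENB replicate 1 (0.0905) or ENB replicate 2 (0.0583). Summed TPM of the 19 genes was 2801 ± 544 in NSC, 2087 ± 30.1 in ENB, 3671 ± 217 in LNB and 3269.9 ± 103.6 in Neuron (SD, n = 2, 2, 3 and 2), against 1924 ± 148 in the OB and 1078 ± 37.5 in the SVZ control (n = 3 each). Ribosome-bound Hnrnpa1 alternated between stages, with 321 and 507 CPM in NSC, 137 and 208 in ENB, 341, 365 and 372 in LNB and 167 and 119 in Neuron. All 3 steps passed the test, at -1.27 ± 0.31 (adjusted p = 0.0205), 1.06 ± 0.28 (0.0212) and -1.33 ± 0.29 (0.0158). The first was lost without NSC replicate 2 (0.17) or ENB replicate 1 (0.173), the second without ENB replicate 1 (0.218), LNB replicate 2 (0.0616) or LNB replicate 3 (0.0644) and with the animal as a block (0.0698), and the last without Neuron replicate 2 (0.169). The last was also lost with the sequencing index as a term. LNB and Neuron ribosome-bound libraries share no index, so index and stage cannot be told apart there within an index. Its level was 117, 116 and 90 CPM in the OB control and 153, 101 and 95.5 CPM in the SVZ control, close to those of Neuron and ENB.

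**Figure D4:**
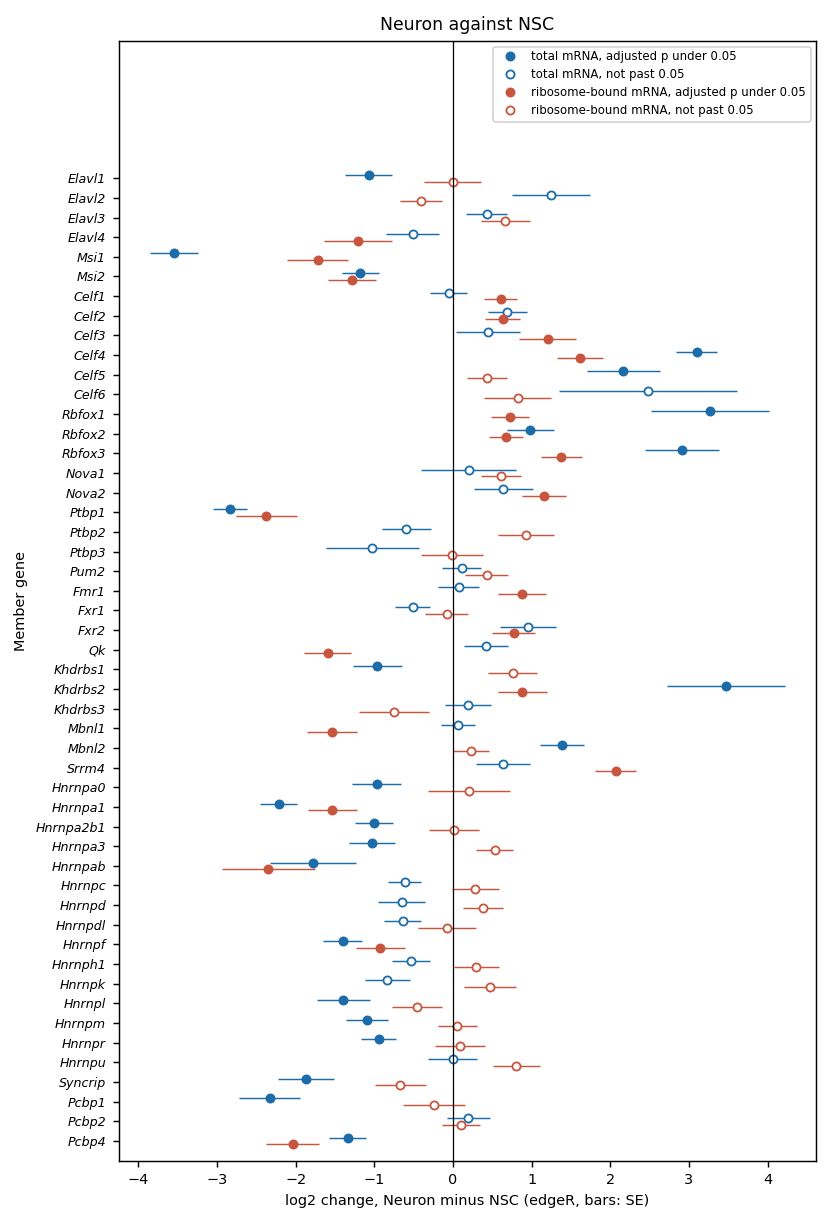
Log2 change in Neuron against NSC for each of the 50 genes in total mRNA (blue) and ribosome-bound mRNA (red), with the standard error as bars and filled points where the adjusted p is under 0.05. Most hnRNP and Pcbp genes lie left of 0 in total mRNA and near 0 in ribosome-bound mRNA, and Celf4, Rbfox1, Rbfox2, Rbfox3 and Khdrbs2 lie right of 0 in both.

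Promoter sequence gives a view of these genes that expression did not enter. Windows of 300 bases around RefSeq transcript starts (GRCm38.p6, 250 before and 50 after the start) were found for 43 of the 50 genes, with 83 windows. The box GGGCGG, read on either strand, was present in 65.1% of these windows, against 35.7% of all 32851 windows, and the box CCAAT in 48.2% against 37.4%. The 28 windows of hnRNP and Pcbp genes held GGGCGG in 78.6% and CCAAT in 53.6%, with a median of 32 CpG, and the 55 windows of the other families in 58.2% and 45.5%, with a median of 18 CpG, where all windows had a median of 7. TATAAA was found in 8.4% of the genes' windows and 13.6% of all. Genes with several starts enter with several windows, some of which overlap. All windows together cover 27025 genes, expressed in these data or not. The letters of a box are a description and not a bound site. The 200 bases before the start are shown for Ptbp1, Hnrnpa1 and Pcbp1, which with Msi1 had the 4 most negative changes of total mRNA in Neuron against NSC, and for Ptbp2 and Rbfox3 as paralog or counterpart, on the strand of the gene from 5' to 3'. Capitals mark the boxes CCAAT and GGGCGG, read on either strand. Ptbp1 lies at chr10:79854232-79854431 (plus strand), Hnrnpa1 at chr15:103240197-103240396 (plus), Pcbp1 at chr6:86526190-86526389 (minus), Ptbp2 at chr3:119783389-119783588 (minus) and Rbfox3 at chr11:118761042-118761241 (minus).
Ptbp1: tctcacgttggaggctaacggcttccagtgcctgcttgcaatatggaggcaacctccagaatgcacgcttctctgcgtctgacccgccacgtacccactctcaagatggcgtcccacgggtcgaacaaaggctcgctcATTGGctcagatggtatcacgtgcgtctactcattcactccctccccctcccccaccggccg
Hnrnpa1: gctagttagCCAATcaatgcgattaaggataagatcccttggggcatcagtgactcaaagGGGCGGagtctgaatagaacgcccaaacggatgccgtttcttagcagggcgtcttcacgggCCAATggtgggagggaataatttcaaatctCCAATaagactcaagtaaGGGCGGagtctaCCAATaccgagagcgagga
Pcbp1: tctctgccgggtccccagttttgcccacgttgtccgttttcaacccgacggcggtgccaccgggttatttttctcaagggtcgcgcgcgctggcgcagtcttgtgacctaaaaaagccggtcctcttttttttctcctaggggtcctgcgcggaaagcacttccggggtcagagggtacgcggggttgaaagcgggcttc
Ptbp2: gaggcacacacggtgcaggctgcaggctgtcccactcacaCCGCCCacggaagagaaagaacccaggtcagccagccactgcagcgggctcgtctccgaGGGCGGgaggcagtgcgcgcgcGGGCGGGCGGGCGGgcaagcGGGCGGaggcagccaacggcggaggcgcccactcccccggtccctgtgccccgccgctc
Rbfox3: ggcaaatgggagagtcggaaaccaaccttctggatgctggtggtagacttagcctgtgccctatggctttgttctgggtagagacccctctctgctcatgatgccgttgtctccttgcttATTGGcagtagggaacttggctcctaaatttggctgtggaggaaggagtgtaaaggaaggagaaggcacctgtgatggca
The Hnrnpa1 stretch held 4 CCAAT and 2 GGGCGG matches and the Ptbp2 stretch 6 GGGCGG matches, overlapping ones included. The Ptbp1 and Rbfox3 stretches held 1 CCAAT match each and no GGGCGG, and the Pcbp1 stretch held neither. The starts used for Rbfox3, Ptbp2 and Hnrnpa1 lie inside the RefSeq span of the gene, that of Rbfox3 far inside it. These stretches therefore do not precede the outermost 5' end of the gene.

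The immunoprecipitates were set against the no-HA control of their tissue to see which of the 50 genes stood above background. In the NSC immunoprecipitate 17 genes were higher and 3 lower than in the SVZ control, where 8.75% of all genes were higher and 6.59% lower. In the ENB immunoprecipitate 3 were higher and none lower, where 0.708% and 0.813% of all genes were, 1.52% together. In the LNB immunoprecipitate 19 were higher and 1 lower than in the OB control, where 7% and 3.06% of all genes were, and in the Neuron immunoprecipitate 14 were higher and 4 lower, where 11.6% and 15.7% were. With RLE scaling the LNB split was 10 higher and 2 lower, and 663 of 1425 called genes were higher in place of 1335 of 1918. Of the 19 hnRNP and Pcbp genes, 10 were above the control in NSC, none in ENB, 11 in LNB and 7 in Neuron, and none was below it in any. Hnrnpab was the furthest above in NSC, at 384 and 696 CPM against 153, 37.8 and 37 in the control (2.83 ± 0.52, adjusted p = 0.0026), followed by Hnrnpa1 among the hnRNPs (1.83 ± 0.27, adjusted p = 0.00066). In LNB the same pair led, Hnrnpab at 2.17 ± 0.48 (adjusted p = 0.0154) and Hnrnpa1 at 1.74 ± 0.25 (adjusted p = 0.00355). These counts depended on single libraries. In NSC 9 of 20 calls held without NSC replicate 2, 12 without SVZ control replicate 3 and 13 without SVZ control replicate 2. In ENB none of the 3 held without ENB replicate 2 or without SVZ control replicate 3. In Neuron 6 of 18 held without Neuron replicate 2, 10 without Neuron replicate 1 and 11 without OB control replicate 3. In LNB 2 of 20 calls held without LNB replicate 2 or without LNB replicate 3, and the Hnrnpab call there was lost without LNB replicate 2 (0.0667) or 3 (0.0673) or OB control replicate 3 (0.0586).

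Genes below the control were fewer. Mbnl1 had 33.1 and 15.5 CPM in the Neuron immunoprecipitate, against 72.4, 64.8 and 92.7 in the OB control (-1.66 ± 0.30, adjusted p = 0.00147), and Qk 122 and 222 against 488, 560.0 and 551 (-1.63 ± 0.28, adjusted p = 0.00102). Ptbp1 was lower there too (-1.21 ± 0.35, adjusted p = 0.0201, lost without Neuron replicate 2 at 0.161 or OB control replicate 3 at 0.0662), whereas in NSC it was above the SVZ control (1.88 ± 0.34, adjusted p = 0.00231). The controls of the 2 tissues differed for 9 of the 50 genes, 4 higher and 5 lower in OB than in SVZ, where 11.8% of all genes differed (5.65% higher and 6.12% lower). A change in LNB or Neuron against an SVZ stage in ribosome-bound mRNA therefore sits on a different background for these genes, which include Srrm4, Khdrbs1, Mbnl1 and Mbnl2.

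**Figure D5:**
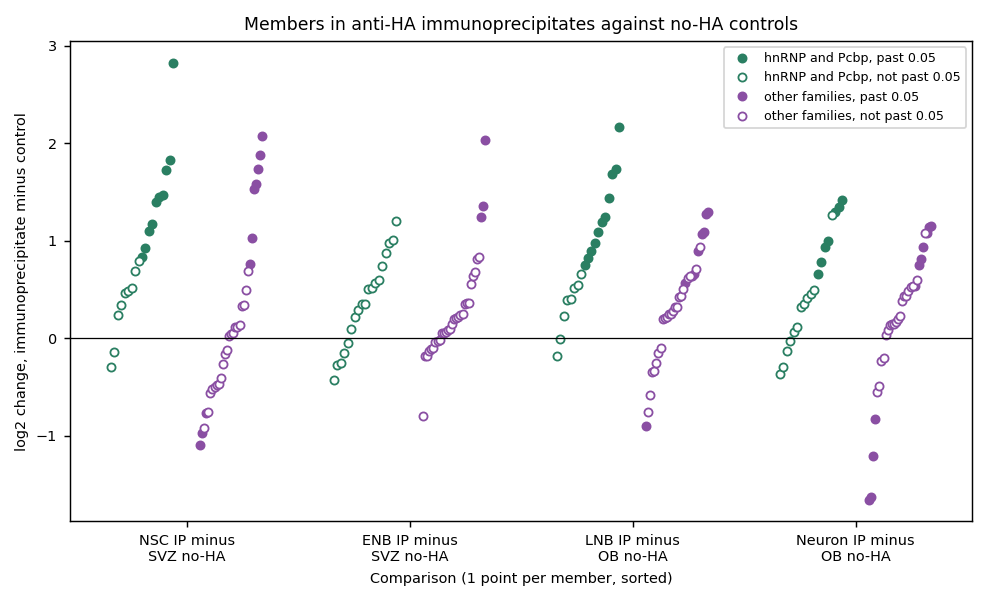
Log2 change of each of the 50 genes in the immunoprecipitate of each stage against the no-HA control of its tissue (1 point per gene, sorted within class, filled where the adjusted p is under 0.05), with hnRNP and Pcbp genes in green and the other families in purple. Filled green points lie above 0 in NSC, LNB and Neuron (10, 11 and 7 genes) and there is none in ENB.

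Whether a step differed between ribosome-bound and total mRNA was tested as an interaction in a fit of all 21 libraries without the controls. In ENB against NSC 4 of the 50 genes differed, where 2.81% of 19913 genes did (1.49% more positive and 1.32% less positive in ribosome-bound mRNA), with Mbnl1 higher and Khdrbs3, Hnrnpa1 and Hnrnpab lower in the ribosome-bound step. In LNB against ENB 7 differed, where 6.15% of all genes did (1.89% more and 4.26% less positive). Hnrnpa1, Hnrnpa3, Hnrnpc and Khdrbs1 had the more positive step in ribosome-bound mRNA and Qk, Mbnl1 and Mbnl2 in total mRNA. In Neuron against LNB 3 differed, where 3.15% of all genes did (1.46% more and 1.69% less positive), with Msi1 and Pcbp1 more positive and Rbfox3 less positive in ribosome-bound mRNA. Pcbp1 had 278 and 242 CPM in Neuron ribosome-bound mRNA, against 313, 353 and 259.7 in LNB, while total mRNA had 110.5, 57.3 and 67.6 in Neuron, against 276, 503 and 167 in LNB. The ENB immunoprecipitate, near its control for most genes, enters both of the first 2 steps. For Msi1 the LNB and Neuron immunoprecipitates lay near or below the OB control. For Rbfox3 the LNB immunoprecipitate did not pass the test against that control. In ENB against NSC none of the 4 calls held with the sequencing index as a term, or without NSC ribosome-bound replicate 2 or ENB ribosome-bound replicate 1. Without LNB total replicate 2, 19 of the 50 genes differed in LNB against ENB, and 2302 of all genes did in place of 1224.

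Other RNA-binding genes give the setting in Neuron against NSC total mRNA, where 11% of all genes were higher and 12.8% lower. Of 24 further hnRNPs and relatives measured, 4 were higher and 7 lower, with Pcbp3 (3.58 ± 0.32) and Ralyl (2.87 ± 0.50) the largest rises and Hnrnpul1 (-2.30 ± 0.40) and Raly (-1.62 ± 0.36) the largest falls. Of 32 SR proteins and core splicing factors 2 were higher and 14 lower, with a median of -0.68. Srsf12 (2.50 ± 0.63) and Snrpn (1.99 ± 0.27), whose transcript also holds Snurf, rose, and the 3' splice site factors U2af1 (-2.20 ± 0.22) and U2af2 (-1.63 ± 0.30) fell most. Of 34 translation and stability regulators 4 were higher and 12 lower, with a median of -0.50, led by the cytoplasmic polyadenylation factors Cpeb1 (2.08 ± 0.48) and Cpeb3 (1.99 ± 0.29) upward and by Rbm38 (-3.69 ± 0.87) and Ybx1 (-2.54 ± 0.38) downward. In ribosome-bound mRNA the same comparison gave 6 higher and 1 lower, 3 higher and 1 lower, and 2 higher and 5 lower genes in these lists, with medians of 0.11, -0.14 and -0.02, where 11% of all genes were higher and 15.7% lower.

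Library index was examined as a technical batch, since the second index sequence is shared by libraries of several groups. Where a comparison could be made within one index, every called gene kept its direction: 24 of 24 in Neuron against NSC and 17 of 17 in Neuron against LNB in total mRNA, 10 of 10 in ENB against NSC total mRNA within each of 2 indexes, 5 of 5 in ENB against NSC and 9 of 9 in LNB against ENB in ribosome-bound mRNA, and all 20, 3, 20 and 18 called genes in NSC, ENB, LNB and Neuron against the controls. Each such comparison used a subset of the libraries that gave the calls, so agreement in direction was nearly fixed in advance. It is no independent check. LNB and Neuron ribosome-bound libraries share no index and neither do NSC and Neuron, so index and stage cannot be told apart there within an index. With the index as a term in the fit, 11 of the 22 calls in Neuron against NSC ribosome-bound mRNA held, and Hnrnpab (-0.53, adjusted p = 0.393), Elavl4 (-0.58, 0.518) and Hnrnpa1 (-0.78, 0.114) were among those lost.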

How the data were processed

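Smart-seq2 libraries of polyadenylated RNA were sequenced on an Illumina HiSeq, per the labels' protocols. The authors deposited raw counts per gene, RSEM expected counts and TPM (transcript levels corrected for length and depth). The submitters' processing notes name RSEM 1.2.21, Bowtie2 2.2.6 and GRCm38, and the tool behind the raw counts is not given in the sources used here. Columns were matched to libraries by name, and 92 TPM rows with no gene ID were not used.

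Raw counts were fitted with edgeR 4.0.16 (R 4.3.3) after edgeR's default filter on low counts and TMM scaling, in 1 fit for total mRNA, 1 for all immunoprecipitates and 1 for the interactions. The groups were the sole terms. CPM from the total and immunoprecipitate fits are scaled apart and were not compared. Quasi-likelihood p-values were adjusted over all genes of a fit, with a threshold of 0.05, and the procedure was tested on simulated data. Deposited expected counts, rounded to whole numbers, were an alternative, as were DESeq2 1.42.0, RLE scaling, no filter, the sequencing index or the replicate number as a term, the animal as a block, and each library left out. The animal block was run for LNB against ENB in each kind of mRNA, and not for the interactions. TPM gave levels between genes and family shares.

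All 50 genes were to be named, with full statistics for the largest changes of each comparison. The members and lists were chosen with earlier results of these data known. ENB and LNB libraries from shared animals, per the labels, pair in ribosome-bound mRNA under the same number and in total mRNA under different numbers. Deviations of libraries sharing an animal correlated at 0.0556 to 0.0801 in total and -0.0249 to 0.119 in ribosome-bound mRNA (2 pairs each). Replicates of a group correlated at 0.88 to 0.945 (Spearman, across genes, 24 pairs) and none were identical. A total mRNA library came from 1 to 2 mice, and for the other libraries the number is not given in the sources used here. The spread behind a p-value is that of libraries and may be technical in part, and counts without molecular identifiers cover sampling of reads, not of cells.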

Additional observations from a re-analysis of the deposited data

Results flagged for a closer look

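The steps below differed between ribosome-bound and total mRNA, and the difference itself was tested as an interaction with edgeR's quasi-likelihood test, adjusted over 19913 genes. Values are the log2 step in ribosome-bound mRNA minus that in total mRNA, with its standard error. No group had more than 3 libraries, so single libraries were not tested as outliers.

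In ENB against NSC, Khdrbs3 differed by -2.15 ± 0.54 (adjusted p = 0.0393), Mbnl1 by 1.93 ± 0.39 (0.0136), Hnrnpa1 by -1.79 ± 0.37 (0.015) and Hnrnpab by -3.65 ± 0.76 (0.0163). The Khdrbs3 call held in 1 of 10 fits with a library left out. The other 3 were lost without ENB ribosome-bound replicate 1 (adjusted p = 0.0959, 0.107 and 0.113 for Mbnl1, Hnrnpa1 and Hnrnpab) or NSC ribosome-bound replicate 2 (0.0664, 0.118 and 0.101). Mbnl1 was also lost without NSC ribosome-bound replicate 1 (0.0783), and Hnrnpab without ENB ribosome-bound replicate 2 (0.0575).

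In LNB against ENB, Qk differed by -2.02 ± 0.40 (adjusted p = 0.00894) and Mbnl1 by -2.18 ± 0.36 (0.00318), and both calls held in 11 of 11 fits with a library left out. For both genes the ENB immunoprecipitate lay at the level of the SVZ control. Some ENB and LNB libraries share animals, and the animal was not run as a block for the interactions. Khdrbs1 differed by 1.94 ± 0.42 (0.0122), Mbnl2 by -1.72 ± 0.36 (0.0112), Hnrnpa1 by 1.68 ± 0.35 (0.0111), Hnrnpa3 by 1.87 ± 0.39 (0.0111) and Hnrnpc by 1.30 ± 0.29 (0.0146). Without ENB ribosome-bound replicate 1 these were lost, at adjusted p = 0.0696, 0.0639, 0.0756, 0.067 and 0.0839.

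In Neuron against LNB, Msi1 differed by 2.32 ± 0.41 (adjusted p = 0.00842), a call that did not hold without Neuron ribosome-bound replicate 2. Ribosome-bound Msi1 in LNB (13.1, 10.3 and 14.4 CPM) and Neuron (9.35 and 11.2) lay near or below the OB control (15.4, 13.7 and 16). Rbfox3 differed by -2.73 ± 0.52 (0.011, and 0.0686 or 0.0978 without Neuron ribosome-bound replicate 1 or 2). Ribosome-bound Rbfox3 in LNB (316, 381 and 355 CPM) did not pass the test against the OB control (244, 284 and 216). Pcbp1 differed by 1.76 ± 0.47 (0.0483), a call that held in 2 of 11 fits with a library left out, with adjusted p up to 0.179.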

How the results depend on the processing

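No call on a member changed sign under any alternative run. Of 173 calls over 16 comparisons, 147 held with RLE scaling, 150 with no filter, 157 with the deposited expected counts, 123 with the index as a term, 143 with the replicate block and 172 with DESeq2. Within one index 147 of 147 kept their sign, over subsets of the libraries that gave the calls, which is no independent check. RLE moved the median of all genes in Neuron against LNB total mRNA from -0.18 to -0.01, in Neuron against NSC total mRNA from -0.06 to 0.06, in LNB against ENB ribosome-bound mRNA from 0.08 to -0.06 and in LNB against the OB control from -0.08 to -0.25.

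Counts of members that moved by more than 1.5 times were these, with calls over all genes in brackets. In LNB against ENB total mRNA the 1 call (663) became 2 with RLE (648) and 5 with DESeq2 (1891). It became 0 with the index (155), the replicate block (205) or the animal block (52). With the deposited expected counts (516) there was 1 call as well, but it was lower and was not Qk. In LNB against ENB ribosome-bound mRNA 9 (2452) became 4 with the animal block (1217). In ENB against NSC ribosome-bound mRNA 5 (1579) became 9 with no filter (2400) or the index as a term (1583) and 13 with DESeq2 (2854). In Neuron against LNB ribosome-bound mRNA 1 (787) became 6 with no filter (1480) and 3 with DESeq2 (1767). The ENB immunoprecipitate count of 3 (290) became 6 with no filter (636) and 7 with DESeq2 (850). The LNB one of 20 (1918) became 12 with RLE (1425). DESeq2 gave 20 (3338) in place of 10 (1772) in ENB against NSC total mRNA. The interaction counts of 4 (559) in ENB against NSC and 3 (627) in Neuron against LNB became 11 (1568) and 6 (1740) with DESeq2. The first became 0 (43) with the index as a term. The cause was not tested.

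With 1 library left out, counts in total mRNA ran from 6 to 7 in ENB against NSC, 0 to 13 in LNB against ENB, 11 to 18 in Neuron against LNB and 15 to 22 in Neuron against NSC. For the same comparisons the ribosome-bound counts were 0 to 4, 3 to 6, 0 to 2 and 11 to 14. Against the controls they ran from 9 to 20 in NSC, 0 to 3 in ENB, 2 to 13 in LNB and 6 to 15 in Neuron, and between the controls from 6 to 8. The interactions ran from 0 to 4, 2 to 19 and 0 to 4. The counts of 13 and 19 came without LNB total replicate 2, where calls over all genes also rose, to 1643 and 2302. Where a group of 2 lost 1, the remaining library is assumed to vary like the others. Replicate numbers shared across groups did not pair libraries otherwise (same-number correlations from -0.154 to 0.0746 in total and -0.0249 to 0.119 in immunoprecipitates).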
